A study of Caenorhabditis elegans with 6 samples.

Results

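Mitochondria carry their own ribosomes, which make the few proteins that are still encoded in mitochondrial DNA, all of them subunits of the respiratory chain and the ATP synthase. The protein parts of this ribosome are encoded in the nucleus, translated in the cytosol and imported, and they build a large subunit, which joins amino acids, and a small subunit, which reads the messenger RNA. Some of these proteins descend from bacterial ribosomal proteins and others were added in mitochondria. In *C. elegans* the family is best known for *mrps-5*, whose knock-down lengthens life and induces the mitochondrial unfolded protein response. The genes described here are all those whose name in the expression table starts with mrpl- (large subunit) or mrps- (small subunit), 66 of 28641 genes in all, 39 mrpl and 27 mrps genes. Membership follows from the names alone.

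RNA was sequenced from whole *alh-4(-)* worms, a Bristol N2 background carrying the CRISPR deletion *hj221* in the aldehyde dehydrogenase gene *alh-4*, and from wild type (WT) Bristol N2 worms. All worms were synchronized, fed with *E. coli* OP50, grown at 20 °C and collected at the L4 stage without treatment, and each genotype had 3 biological replicates with 1 library each. The deletion is present in every cell and was represented by 1 allele, and no second allele was sequenced here. The authors deposited FPKM values, fragments scaled to exon length and to the fragments mapped, so that levels of different genes can be compared per length, but the number of reads behind a value is unknown.

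The deleted gene followed the labels, with 33.7, 24.6 and 35.2 FPKM for *alh-4* in *alh-4(-)* worms against 352, 291 and 336 FPKM in WT worms (log2 fold change -3.36 ± 0.22, standard error, with an adjusted p of 0.00301 in limma). Since a deleted stretch gives no reads, this checks the labels and does not measure how much transcript was made. Markers of intestine, body wall muscle, hypodermis, germ line, sperm and oocytes, 5 of each, were all at 1 FPKM or more in every library, and 4 of 5 neuronal markers were. Replicate 1 of each genotype stood apart, with 17623 genes above 0 in *alh-4(-)* and 19102 in WT worms, against 21058 to 22670 in the other libraries. The 5 oocyte markers (*oma-1*, *rme-2*, *cbd-1*, *puf-5* and *egg-1*) were higher in every *alh-4(-)* library than in every WT library. This held for 5.97% of all tested genes. The 5 markers summed to 5624 to 6451 FPKM against 3491 to 4649 FPKM, and the nearest *rme-2* values were 484 and 481 FPKM. Of the 5 germ line markers 1, *gld-1*, was also higher without overlap. The part of oocytes and germ line in the values below was not tested. In whole worms, fewer cells of a type and less RNA per cell cannot be told apart.

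None of the mitochondrial ribosomal protein genes passed the test of the genotypes. Of the 66, 65 had a mean of at least 1 FPKM over the 6 libraries and were tested with limma on log2(FPKM + 1) among 16225 genes. By adjusted p under 0.05, 0 of the 65 were called, against 23 of all tested genes (0.142%). Even at an unadjusted p under 0.05, 0 of the 65 were reached by limma, against 4.97% of all tested genes, and the smallest p was 0.119. The thresholds of the study, a fold change over 2 together with an unadjusted p under 0.05, were passed by 0 of the 65 and by 2.92% of all tested genes. The log2 fold changes ran from -0.67 to 0.34 with a median of 0.05, and 41 of the 65 lay above 0. The median over all tested genes was 0.07, and 58% lay above 0. The sign of the members' median was not stable, since it was -0.01 after quantile normalization, -0.03 after upper quartile scaling, -0.02 without *alh-4(-)* replicate 1 and -0.05 without WT replicate 2.

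The intervals of the fold changes were mostly narrow. The 95% interval of the fold change, not adjusted for the number of genes, stayed within 2-fold in either direction for 57 of the 65 members (87.7%), against 39.6% of all tested genes. Among genes with a mean of at least 10 FPKM, where the spread is smaller, it did so for 50 of 56 members (89.3%) and for 54.4% of all tested genes. The 8 members with a wider interval were *mrpl-36*, *mrpl-46*, *mrpl-55*, *mrps-7*, *mrps-16*, *mrps-25*, *mrps-28* and *mrps-31*. For these the interval reached past a 2-fold change in at least one direction. The absolute log2 fold change was smaller than the gene's own standard deviation between replicates in 56 of the 65 members, against 73.7% of all tested genes.

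**Figure D1:**
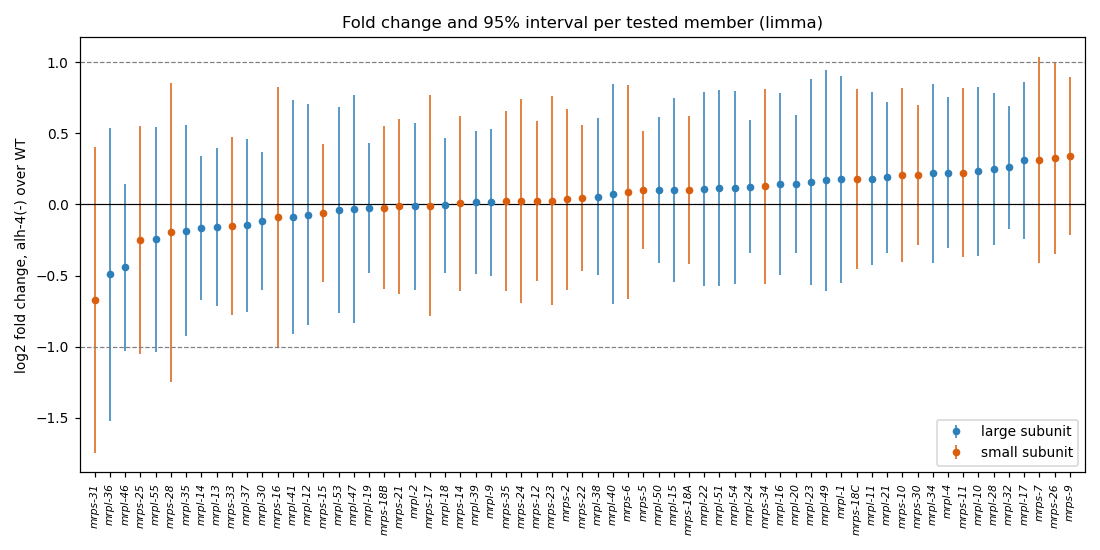
Log2 fold change of *alh-4(-)* over WT on the log2(FPKM + 1) scale (y axis) for the 65 tested members in order of their value (x axis), coloured by subunit, with 95% intervals from limma. All 65 intervals include 0, and 57 lie between the dashed lines at a 2-fold change.

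Although most of the proteins occur once per ribosome, the levels of their mRNAs were far apart. The highest and the lowest tested mean differed 659.5-fold, and 2 members lay above 1000 FPKM, 24 between 100 and 1000, 30 between 10 and 100, 9 between 1 and 10 and 1 below 1. The median of the member means was 88.7 FPKM in the large subunit and 32.9 FPKM in the small subunit. Families with a bacterial counterpart had a median of 109.7 FPKM over 43 genes and the mitochondria-specific ones 19.5 FPKM over 22 tested genes. This split follows the numbers in the gene names by the human nomenclature. Of 64 tested members with a gene model, those with a longer coding sequence tended to be higher. Spearman's rho was 0.40 and Pearson's r 0.38 across genes, which share the same libraries. The lowest tested member, *mrpl-36*, has a coding sequence of 231 bases. Whether the recovery of short transcripts added to the spread of levels was not tested.

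**Figure D2:**
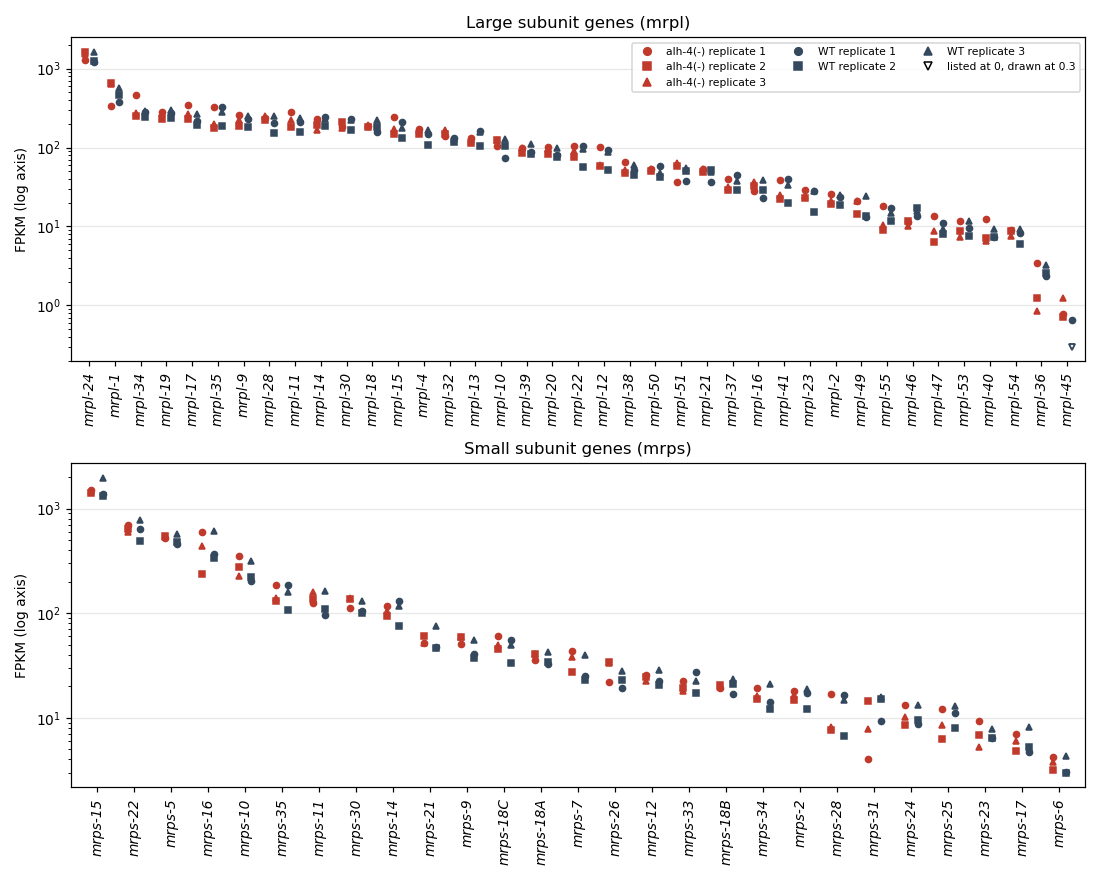
FPKM per library on a log axis for the 39 mrpl genes (top) and the 27 mrps genes (bottom), ordered by mean, with *alh-4(-)* libraries on the left and WT libraries on the right of each gene and symbols for the replicates. The order runs from *mrpl-24* and *mrps-15*, above 1000 FPKM, to *mrpl-36* and *mrpl-45* (its WT replicates 2 and 3, listed at 0, share the open symbol), while the genotypes overlap in nearly every gene.

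The most abundant member was *mrps-15*, an RNA-binding protein of the small subunit. Its level was 1513, 1410 and 1481 FPKM in *alh-4(-)* worms and 1377, 1329 and 1956 FPKM in WT worms, with a log2 fold change of -0.06 (95% interval -0.55 to 0.43). The large subunit gene *mrpl-24*, whose bacterial counterpart starts the assembly of the large subunit, followed with 1286, 1613 and 1552 FPKM in *alh-4(-)* worms and 1221, 1246 and 1627 FPKM in WT worms. These 2 were more than 2-fold above the third gene by mean, and their ranges overlapped in both genotypes. Then came *mrps-22*, a mitochondria-specific protein of the small subunit, with 700.0, 631 and 602 FPKM in *alh-4(-)* worms and 631, 493 and 777 FPKM in WT worms. WT replicate 2 was its lowest library and WT replicate 3 its highest, so that the *alh-4(-)* values lay inside the WT range.

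Next by mean came the longevity gene *mrps-5*, followed by *mrpl-1*. Over all 6 libraries their ranges overlapped with each other and with that of *mrps-22*. Within each library, however, *mrps-22* was above *mrps-5*, and in *alh-4(-)* worms the ranges of *mrps-22* and *mrps-5* did not overlap. The gene *mrps-5* had 527, 544 and 538 FPKM in *alh-4(-)* worms, a mean of 536 ± 8.61 (SD, n = 3), and 459, 477 and 571 FPKM in WT worms, a mean of 502 ± 60.6 (SD, n = 3). The *alh-4(-)* values were tightly grouped and lay within the WT range. The change of 0.10 on the log2 scale had a standard error of 0.18 (limma, adjusted p = 0.9998), and the 95% interval of the fold ran from 0.805 to 1.43. The gene *mrpl-1*, whose bacterial counterpart forms the mobile stalk beside the site where spent tRNA leaves, had 340, 654 and 638 FPKM in *alh-4(-)* worms and 374, 457 and 575 FPKM in WT worms. In both genotypes its lowest value was in replicate 1.

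At the low end stood *mrpl-45*, the only member that failed the filter and was not tested. In mammals its product lines the exit tunnel and holds the ribosome at the inner membrane. It was at 0.770, 0.716 and 1.25 FPKM in *alh-4(-)* worms and at 0.653, 0 and 0 FPKM in WT worms. The genotypes did not overlap, by a margin of less than 0.1 FPKM, and a value listed at 0 can also be a failed estimate, so no fold change is given. The other members of low level were *mrpl-36*, *mrps-6*, *mrps-17* and *mrps-23*, with means over the 6 libraries of 2.29, 3.59, 6.003 and 7.005 FPKM. Their levels in *alh-4(-)* and WT worms overlapped. For *mrps-6*, *mrps-17* and *mrps-23* the log2 fold changes were 0.09, -0.01 and 0.03, on a scale that understates changes of low genes.

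Among the 38 tested large subunit genes, 23 were above 0 and 15 below 0 on the log2 fold change scale, with a median of 0.09 (-0.001208 after quantile normalization). The smallest p of all members was that of *mrpl-46*, whose product belongs in mammals to the central protuberance of the large subunit. It was at 11.5, 11.7 and 10.2 FPKM in *alh-4(-)* worms and at 13.5, 17.2 and 15.9 FPKM in WT worms, so that every *alh-4(-)* library lay below every WT library. The log2 fold change was -0.44 ± 0.25 (standard error), with an adjusted p of 0.9998 in limma. The two-sided exact permutation test gave p = 0.1, the smallest that 3 against 3 libraries allow.

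The zinc-binding protein gene *mrpl-32* did the opposite, with 142, 147 and 168 FPKM in *alh-4(-)* worms and 132, 118.6 and 129.6 FPKM in WT worms. In yeast and mammals its product must be cut by the m-AAA protease of the inner membrane, one subunit of which is encoded by *spg-7* in worms, before it enters the ribosome. The genotypes did not overlap, at a log2 fold change of 0.26 ± 0.19 (standard error), with p = 0.1 in the two-sided exact permutation test and an adjusted p of 0.9998 in limma. Of the 65 tested members 1, *mrpl-32*, was higher in *alh-4(-)* worms without overlap, as 5.97% of all tested genes were, and 1, *mrpl-46*, was lower, as 3.25% were. Together these are 3.08% of the members, where 9.21% of all tested genes had no overlap.

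The third large subunit gene by p was *mrpl-17*, which sits near the exit of the tunnel. It had 349, 232 and 267 FPKM in *alh-4(-)* worms and 219.9, 191 and 269 FPKM in WT worms, and a log2 fold change of 0.31 ± 0.24 (standard error). Its highest library was *alh-4(-)* replicate 1, and without it the log2 fold change was 0.15. For *mrpl-36*, a very short zinc-binding protein, the values were 3.48, 1.22 and 0.852 FPKM in *alh-4(-)* worms and 2.38, 2.60 and 3.21 FPKM in WT worms. In *alh-4(-)* worms replicates 2 and 3 lay below all WT libraries while replicate 1 lay above them, and the log2 fold change of -0.49 had a standard error of 0.44. Without *alh-4(-)* replicate 1 it was -0.87, with an adjusted p of 0.445 and an unadjusted p under 0.05 in limma, which 11% of all tested genes had in that fit. The gene *mrpl-28* had 237, 224 and 252 FPKM in *alh-4(-)* worms and 205, 154 and 250.5 FPKM in WT worms, with a log2 fold change of 0.25. WT replicate 2 was its lowest library, and without it the log2 fold change was 0.07, while it was 0.41 without WT replicate 3.

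The genes *mrpl-10*, *mrpl-11* and *mrpl-12* encode the stalk that recruits the translation factors and its base. For *mrpl-10* the means were 118 ± 12.4 FPKM in *alh-4(-)* worms and 102 ± 26.5 FPKM in WT worms (SD, n = 3 each). For *mrpl-11* they were 231 ± 51.9 FPKM in *alh-4(-)* worms and 203 ± 42.3 FPKM in WT worms (SD, n = 3 each). For *mrpl-12*, which is present in several copies per ribosome, they were 73.2 ± 24.4 FPKM in *alh-4(-)* worms and 76.9 ± 22.1 FPKM in WT worms (SD, n = 3 each). In all 3 genes the log2 fold change was smaller than the standard deviation between replicates.

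Among the 27 small subunit genes, 18 were above 0 and 9 below 0, with a median log2 fold change of 0.03 (-0.04 after both quantile normalization and upper quartile scaling), and the genotypes overlapped in all 27. The largest positive log2 fold change of any tested member was that of *mrps-9*, whose bacterial counterpart reaches towards the tRNA with its tail. It had 50.7, 58.9 and 59.2 FPKM in *alh-4(-)* worms and 40.9, 37.5 and 55.9 FPKM in WT worms, which is 0.34 ± 0.24 (standard error) on the log2 scale, with an adjusted p of 0.9998 in limma. Only WT replicate 3 reached into the *alh-4(-)* range, and the log2 fold change was 0.51 without it and 0.23 without WT replicate 2. The largest negative value was that of *mrps-31*, a mitochondria-specific protein of the small subunit, at 4.08, 14.4 and 7.91 FPKM in *alh-4(-)* worms and 9.23, 15.3 and 15.9 FPKM in WT worms. The log2 fold change of -0.67 had a standard error of 0.46 and a 95% interval from -1.75 to 0.41, the widest of the members named here. Without *alh-4(-)* replicate 2 it was -1.07 (adjusted p of 1 in limma). This was the only setting in which a member passed the thresholds of the study, as 500 of 16225 tested genes did there. Without *alh-4(-)* replicate 1 the log2 fold change of *mrps-31* was -0.27.

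The other small subunit genes with small p-values were higher in value in *alh-4(-)* worms. The gene *mrps-26* had 21.8, 34.4 and 33.3 FPKM in *alh-4(-)* worms and 19.2, 22.8 and 28.3 FPKM in WT worms (log2 fold change 0.32). The gene *mrps-7*, whose bacterial counterpart organises the head of the small subunit, had 43.4, 27.3 and 38.5 FPKM in *alh-4(-)* worms and 25.2, 23.1 and 40.0 FPKM in WT worms (log2 fold change 0.31). The gene *mrps-30* had 112, 137 and 139.8 FPKM in *alh-4(-)* worms and 105, 101 and 131 FPKM in WT worms (log2 fold change 0.21). Despite its name, the human counterpart of *mrps-30* was located in the large subunit. In each of these 3 genes WT replicate 3 lay among the *alh-4(-)* values. Their log2 fold changes moved with single libraries. For *mrps-26* the value was 0.53 without *alh-4(-)* replicate 1 and 0.20 without WT replicate 1. For *mrps-7* it was 0.55 without WT replicate 3, 0.16 without WT replicate 2 and 0.09 without both replicate 1 libraries. For *mrps-30* it was 0.32 without WT replicate 3 and 0.14 without WT replicate 2.

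**Figure D3:**
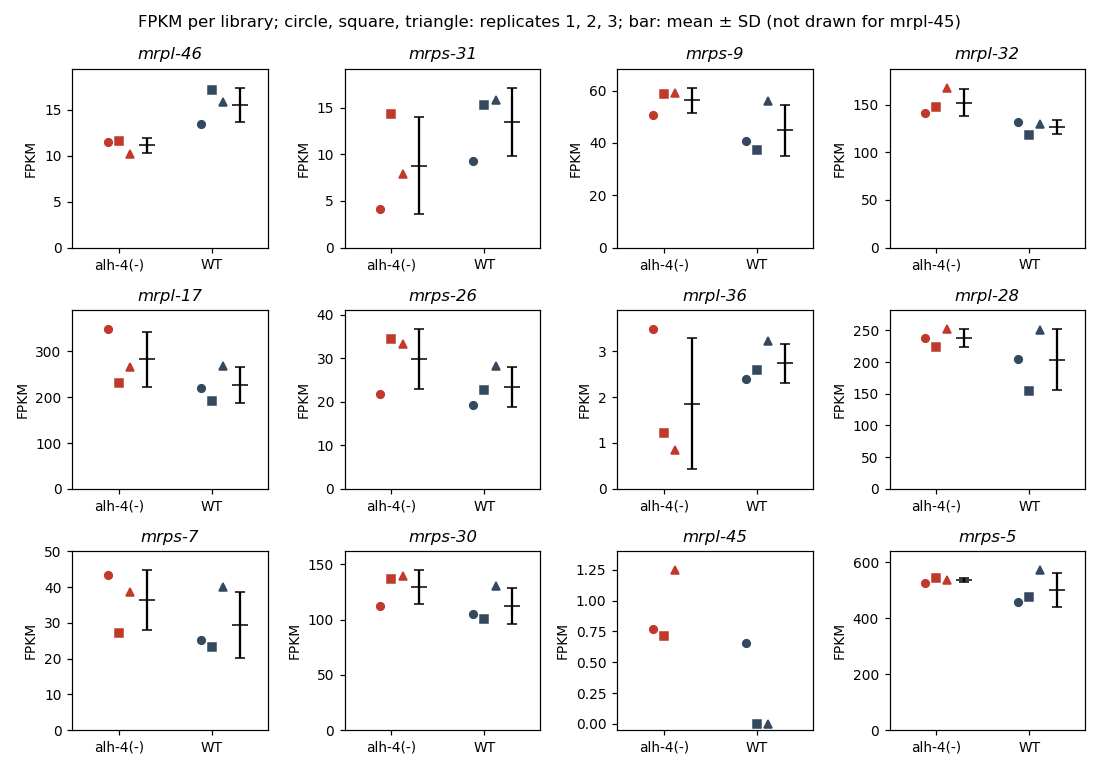
FPKM per library (linear y axis) in *alh-4(-)* (left) and WT (right) worms for the 10 members with the smallest p, *mrpl-45* and *mrps-5*, with mean ± SD (n = 3) beside the points except for *mrpl-45*. The genotypes do not overlap in *mrpl-46*, *mrpl-32* and *mrpl-45*, and *mrpl-45* stays at or below 1.25 FPKM.

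The members also differed between libraries of 1 genotype. In WT worms 63 of the 65 members were higher in replicate 3 than in replicate 2, by a median of 0.45 on the log2 scale, where 60.7% of all tested genes were higher, by a median of 0.15. The closest libraries of 1 genotype were *alh-4(-)* replicates 3 and 2, with a median difference of 0.11. WT replicate 2 was the lowest of the 6 libraries for 35 of the 65 members, against 18.4% of all tested genes. WT replicate 3 was the lowest for 0, against 7.45%. The highest library was WT replicate 3 for 24 members, against 16.6% of all tested genes, and *alh-4(-)* replicate 1 for 23, against 10.6%. Together the 66 members summed to 10769, 9735 and 10226 FPKM in *alh-4(-)* worms and to 9429, 8388 and 11675 FPKM in WT worms, or 0.292% to 0.324% and 0.249% to 0.353% of all FPKM. The *alh-4(-)* sums lay inside the WT range.

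Subunits were assigned by gene name throughout, so that *mrps-30* counted as small. The sum of the large subunit genes was 1.31, 1.43 and 1.41 times that of the small subunit genes in *alh-4(-)* worms. In WT worms it was 1.40, 1.34 and 1.21 times. The ranges of this ratio overlapped. In replicate 1 of *alh-4(-)* the members went against the library as a whole. Their median deviation from the gene's mean was 0.18 there, while that of all tested genes was -0.26. In 16 of the 65 members (24.6%) replicate 1 was the highest library within both genotypes, among them *mrpl-12*, *mrpl-22*, *mrpl-35*, *mrpl-41*, *mrps-14* and *mrps-28*, where 8.52% of all tested genes showed this order. In 11 members (16.9%) it was the lowest within both, among them *mrpl-1*, *mrpl-10*, *mrpl-24*, *mrpl-51*, *mrps-5* and *mrps-26*, where 38% of all tested genes did. With both replicate 1 libraries left out, 0 of the 65 members had an adjusted p under 0.05 by limma and 1, *mrpl-36*, an unadjusted p under 0.05, where 8.9% of all tested genes had one, and the median log2 fold change was -0.04.

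**Figure D4:**
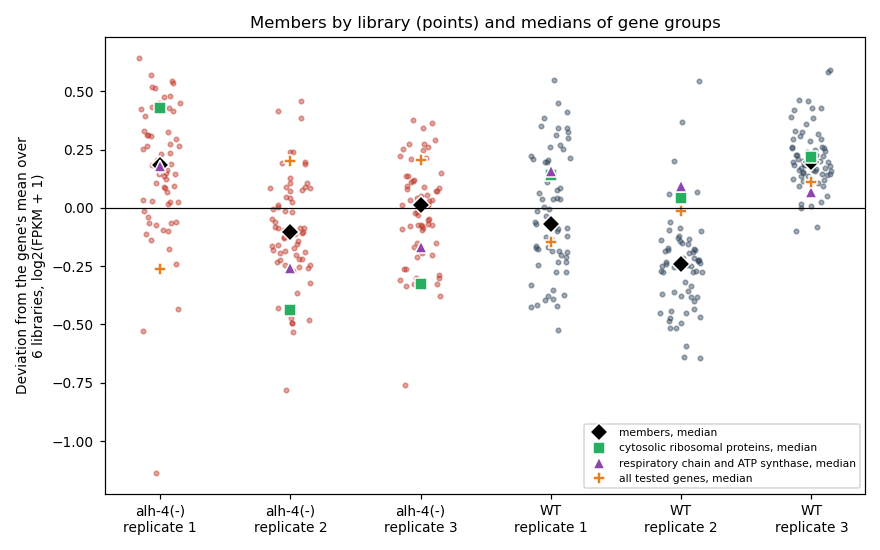
Deviation of each tested member from its own mean over the 6 libraries on the log2(FPKM + 1) scale (y axis, 1 point per gene and library) with the medians of the members, the cytosolic ribosomal protein genes, the respiratory chain and ATP synthase genes and all tested genes. The member median is highest in WT replicate 3 (0.20) and *alh-4(-)* replicate 1 (0.18) and lowest in WT replicate 2 (-0.24).

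Most genes of the cytosolic ribosome and the respiratory chain had log2 fold changes below 0, although none of them was called. Of the 76 cytosolic ribosomal protein genes (rpl and rps), 73 were below 0 with a median log2 fold change of -0.24, and 0 had an unadjusted p under 0.05 by limma. Of 35 tested nuclear genes of the respiratory chain and ATP synthase, 33 were below 0 with a median of -0.22, and again 0 had an unadjusted p under 0.05. Among all tested genes 58% lay above 0 and 4.97% had an unadjusted p under 0.05. The median deviation of the cytosolic ribosomal protein genes was -0.44 and -0.33 in replicates 2 and 3 of *alh-4(-)*, while in replicate 1 it was 0.43, above every WT library (0.04 to 0.22). Their median log2 fold change was -0.49 without *alh-4(-)* replicate 1, -0.15 without replicate 3 and -0.08 without replicate 2. The sign of both medians was the same after quantile normalization and upper quartile scaling. For the members the corresponding medians were 0.18, -0.11 and 0.01 in *alh-4(-)* and -0.07, -0.24 and 0.20 in WT replicates 1, 2 and 3. The difference between these groups was not tested.

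Of the genes listed here as acting with the mitochondrial ribosome, none of those tested was called either. Of 17 genes fixed for mitochondrial translation outside the naming rule (translation factors, assembly factors, aminoacyl-tRNA synthetases and *dap-3*), 14 were tested. Of these 13 were above 0, against 58% of all tested genes, and 0 had an unadjusted p under 0.05, against 4.97%. In a list this short, 0 lies near that share. The median log2 fold change was 0.21. This median was 0.125 without *alh-4(-)* replicate 3, 0.13 without WT replicate 2 and 0.36 without WT replicate 3. The values ran from -0.10 for the prolyl-tRNA synthetase gene *pars-2* to 0.43 for E02H1.2, which RefSeq lists as *eral-1*, the gene of a GTPase that binds the small subunit RNA. The gene *dap-3*, itself a small subunit protein, had 311, 286 and 343 FPKM in *alh-4(-)* worms and 323, 218 and 332 FPKM in WT worms. The 5 genes of mitochondrial DNA upkeep and transcription were all above 0 with a median of 0.22, from 0.00 for *mtss-1* (-0.08 after quantile normalization and -0.07 after upper quartile scaling), a single-stranded DNA binding protein, to 0.41 for the DNA polymerase gene *polg-1*, and 0 had an unadjusted p under 0.05. The *polg-1* values were 106, 117 and 127 FPKM in *alh-4(-)* worms and 87.5, 72.3 and 105 FPKM in WT worms. They did not overlap, but the nearest were 106.0 and 105.1 FPKM. Of the 5 genes 1, *polg-1*, was higher without overlap, as 5.97% of all tested genes were. The median of these 5 genes was 0.06 without *alh-4(-)* replicate 3, 0.45 without *alh-4(-)* replicate 1 and 0.43 without WT replicate 3. The 12 proteins made by the mitochondrial ribosome itself were not analysed here.

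Of the 10 genes of the mitochondrial unfolded protein response and its proteases, 7 were above 0, against 58% of all tested genes. Their median log2 fold change was 0.19, and 0 had an unadjusted p under 0.05 by limma, against 4.97%. The mitochondrial chaperone gene *hsp-6*, the usual reporter of this response, had 83.7, 76.4 and 84.0 FPKM in *alh-4(-)* worms and 84.4, 41.8 and 66.7 FPKM in WT worms (log2 fold change 0.39). WT replicate 2, the library in which most members were lowest, also held its lowest value. The highest log2 fold change of the list was 0.40 for the co-chaperone gene *dnj-10*, at 184, 209.9 and 240.1 FPKM in *alh-4(-)* worms and 145, 166 and 168 FPKM in WT worms (adjusted p = 0.9998 from limma). The lowest was -0.45 for *ubl-5*, a ubiquitin-like cofactor of the response, at 2.72, 3.22 and 3.51 FPKM in *alh-4(-)* worms and 3.87, 4.20 and 6.16 FPKM in WT worms. Of the 10 genes 2, *dnj-10* and the transcription factor gene *dve-1*, were higher in *alh-4(-)* worms without overlap, as 5.97% of all tested genes were, and 1, *ubl-5*, was lower, as 3.25% were. The median of the list lay between 0.08 (without WT replicate 2) and 0.28 (without WT replicate 3) when single libraries were omitted.

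The table also holds 5 genes under other names that RefSeq now lists as mrpl or mrps genes, K11B4.1 (*mrps-27*), T14B4.2 (*mrps-18.C*), R02F2.9 (*mrpl-58*), F02A9.4 (*mrpl-44*) and CD4.3 (*mrpl-48*). Their log2 fold changes ran from -0.03 for R02F2.9 to 0.15 for CD4.3. By limma, 0 of the 5 had an unadjusted p under 0.05, against 4.97% of all tested genes. They are not among the 66.

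By position the members were spread unevenly. In the WBcel235 annotation 65 members have a gene model, of which 21 (32.3%) lie on chromosome III, which holds 13.2% of all protein-coding genes, and 0 lie on chromosome X, which holds 13.7%. Another 14 lie on chromosome I, 11 on II, 10 on IV and 9 on V. In 24 of the 65 (36.9%) a protein-coding gene on the same strand ends within 500 bases upstream, against 18.1% of all protein-coding genes. In worms, close genes on 1 strand are often transcribed together as an operon. Neighbours of this kind include *mrps-2* before *mrpl-4* and *dap-3* before *mrps-22*. The levels of the first pair were far apart, with means of 16.4 ± 1.62 FPKM for *mrps-2* and 163 ± 12.2 FPKM for *mrpl-4* in *alh-4(-)* worms and 16.2 ± 3.50 FPKM and 141 ± 29.7 FPKM in WT worms (SD, n = 3 each). The second pair was closer, with 313 ± 28.4 FPKM for *dap-3* and 644 ± 50.2 FPKM for *mrps-22* in *alh-4(-)* worms and 291 ± 63.6 FPKM and 634 ± 142 FPKM in WT worms (SD, n = 3 each).

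In the same annotation the exons of 17 members overlap those of another protein-coding gene, 13 on the opposite strand and 4 on the same strand. The share of all protein-coding genes with such an overlap was not counted, so whether 17 is many or few is not known. The Smart-seq2 method does not mark the strand of a read, so on opposite strands reads of a member and of its partner cannot be told apart in the shared exons. On the same strand, the strand of a read could not separate member and partner in any case. The overlaps include the 2 most abundant members. Exons of *mrps-15* (mean 1511 FPKM over the 6 libraries) overlap those of K07A12.4, which RefSeq lists as *hbs-1* (185 FPKM), on the same strand, and exons of *mrpl-24* (1424 FPKM) overlap those of C09D4.1 (356 FPKM) on the opposite strand. In 3 members the partner was the more abundant gene. These were *mrps-18A* (38.0 FPKM) with *iglr-2* (262.5 FPKM) on the same strand, and *mrpl-35* (250.0 FPKM) with *hmit-1.3* (604.5 FPKM) and *mrpl-19* (266 FPKM) with *gcy-28* (308 FPKM) on the opposite strand. How many reads were shared was not tested.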

How the data were processed

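Whole L4 worms, 3 libraries each of *alh-4(-)* and WT, were prepared with Smart-seq2, and mapping was done by the authors on ce10 with the iGenome annotation. The submitters' processing notes name bcl2fastq 2.19, Trimmomatic 0.36, HISAT2 2.1.0, SAMtools 1.3 and StringTie 1.3.3. The deposited values are FPKM per gene and library, not counts, so no count test was run and depth is unknown. Libraries were grouped by their titles.

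Log2(FPKM + 1) values of genes with a mean of at least 1 FPKM were fitted with limma 3.58.1 in R 4.3.3 (mean-variance trend, two-sided, Benjamini-Hochberg adjustment over 16225 genes), after a test on simulated data. Tables were made with Python 3.11.15. Alternatives were another pseudocount, other filters, quantile and upper quartile scaling, no trend, array quality weights, a replicate block, each library omitted, the ratio of mean FPKM, and, added after the data were seen, omitting both replicate 1 libraries.

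Members and lists were chosen with earlier results of these data known. Named members are the 10 with the smallest p, the 5 highest, the 5 lowest, *mrps-5* and any that failed the filter, with the extremes of related lists. Others, named for role, interval, library order or position, and *dap-3*, *hsp-6* and *dve-1*, were chosen after their values were seen. The RefSeq symbols of WBcel235, a different build, match 65 members, all but *mrpl-14*, and served only for names, lengths and neighbours.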

Additional observations from a re-analysis of the deposited data

How the results depend on the processing

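The count of members with an adjusted p under 0.05 was 0 under all 15 alternative fits, and the smallest adjusted p of any member was 0.306 from limma, for *mrpl-36* with array quality weights. At an unadjusted p under 0.05 limma gave 2 members (*mrpl-36* and *mrpl-46*) with array quality weights, where 14.6% of all genes had one, 1 (*mrpl-45*) with no filter (4.07% of all genes), 1 (*mrpl-36*) with both replicate 1 libraries left out (8.9%), and between 0 and 1 when single libraries were omitted (3.3% to 11%). Past a fold change over 2 as well, this was between 0 and 1 when single libraries were omitted, against 361 to 930 of 16225 tested genes. The median log2 fold change of the members stayed between -0.05 and 0.18 when single libraries were omitted and was -0.01 after quantile normalization, -0.03 after upper quartile scaling, -0.02 with array quality weights and -0.04 with both replicate 1 libraries left out. For *alh-4* it stayed between -3.45 and -3.20.

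Deviations from the genotype means correlated by 0.31, 0.28 and 0.00 between libraries of the same number. Between replicate 1 of 1 genotype and replicate 2 of the other they correlated by -0.31 and -0.29. However, *alh-4(-)* replicate 3 correlated best with WT replicate 2. Whether the numbers pair the samples was not settled, and the main fit was unpaired. A fit with the replicate block gave 0 members with an adjusted p under 0.05 by limma and 0 at an unadjusted p under 0.05. Over all genes it gave 15 in place of 23 calls, while 1379 in place of 806 genes had an unadjusted p under 0.05. Each replicate number occurs in both genotypes, so the block cannot change a log2 fold change. The median of 0.05 was therefore the same by design. Across 64 members the differences between replicates correlated between the genotypes by r = 0.58, 0.475 and 0.41 for replicates 2 and 1, 3 and 1, and 3 and 2, a description across genes of the same libraries.

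Of 266 alternative values of 18 named members, 249 kept their direction. The other filters, the fit without a trend and the replicate block leave a gene's log2 fold change unchanged. Their values are among the 266 and could not change direction, so the count overstates how stable the directions were. The log2 fold change changed sign for *mrps-22* after quantile normalization (-0.0082), upper quartile scaling (-0.032), array quality weights (-0.034) and without both replicate 1 libraries (-0.0057), for *mrps-23* in the same order (-0.028, -0.036, -0.22 and -0.21), and for *mrps-6* without both replicate 1 libraries (-0.044). Outside the members it did so for *mtss-1* after quantile normalization (-0.083), upper quartile scaling (-0.069) and without both replicate 1 libraries (-0.15), and for R02F2.9 with array quality weights (0.13). When single libraries were omitted it ranged from -0.16 to 0.12 for *mrps-15*, -0.15 to 0.20 for *mrps-17*, -0.12 to 0.205 for *mrps-22*, -0.16 to 0.20 for *mrps-23*, -0.03 to 0.30 for CD4.3, -0.17 to 0.17 for R02F2.9, -0.074 to 0.13 for *mtss-1* and -0.30 to 0.077 for *pars-2*. The cause of these moves was not tested. The depth behind the values is unknown.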
